A study of Homo sapiens with 6 samples.

Results

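The genes of 8 nuclear receptors were examined for TRIM24 occupancy: the retinoic acid receptors RARA, RARB and RARG, their partner RXRA, the thyroid hormone receptor THRA, the vitamin D receptor VDR, the glucocorticoid receptor NR3C1 and the oestrogen receptor ESR1. A peak was counted for a gene when its midpoint lay in the gene body or within 10 kb of it. The gene bodies were fixed in hg19 to the nearest 1 kb, independently of the peaks. The 8 windows held 62 peaks, 19 of 9744 in LNCaP with vehicle, 10 of 7105 in LNCaP with DHT and 33 of 20621 in LNCaP-abl. Joined where they overlapped, these peaks formed 36 of the 22226 regions of the series, and 7 of the 8 genes held at least 1.

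The peaks come from chromatin immunoprecipitation of TRIM24 followed by sequencing in 2 prostate cancer cell lines, LNCaP, which depends on androgen, and its castration-resistant derivative LNCaP-abl. LNCaP cells spent 72 h in medium with charcoal/dextran-treated serum and then received ethanol vehicle or 10 nM dihydrotestosterone (DHT) for 4 h. LNCaP-abl cells were kept in charcoal/dextran-treated serum throughout and received vehicle for 4 h, so all 3 conditions used steroid-depleted serum. There was 1 TRIM24 library per condition and no replicate, and a difference between conditions therefore has no replicate check and was not tested. RNA was not measured, so the identity of the lines was not checked by markers. The depth behind the lists is unknown, and a missing peak may lie below what a library could show. Peaks of 1 library share that library and are not replicates of a condition.

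Nuclear receptors are transcription factors that bind a small lipophilic ligand in one domain and DNA in another. RAR, THRA and VDR proteins pair with RXR proteins and bind direct repeats of the hexamer AGGTCA or close variants of it, while NR3C1 and ESR1 bind mostly as pairs of themselves, NR3C1 to repeats of AGAACA. TRIM24, also called TIF1-alpha, was found as a protein that contacts the ligand-bound form of such receptors, and it reads histone H3 tails through a PHD finger and a bromodomain. The data below concern a different relation, TRIM24 on the genes that encode these receptors.

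TRIM24 peaks were found at RARA, RARG, RXRA, NR3C1 and THRA in each of the 3 lists. VDR and ESR1 had a peak in LNCaP-abl and in neither LNCaP list, and the RARB window had 0 peaks in every list. Thus 5 of 8 windows were occupied in LNCaP with vehicle, 5 of 8 with DHT and 7 of 8 in LNCaP-abl. Cutting the autosomes and the X chromosome, each up to its last peak, into consecutive windows of 144 kb, the mean length of the 8 gene windows, gave a background of 25.1% of windows with a vehicle peak, 21.1% with a DHT peak and 40.1% with a LNCaP-abl peak. These consecutive windows include gene-poor and unmappable sequence, and the gap between genes and such windows was not tested. Peaks in the gene windows had a density of 16.6 per Mb under vehicle, 8.7 per Mb under DHT and 28.7 per Mb in LNCaP-abl. The same lists averaged 3.21, 2.34 and 6.79 peaks per Mb over these chromosomes.

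**Figure D1:**
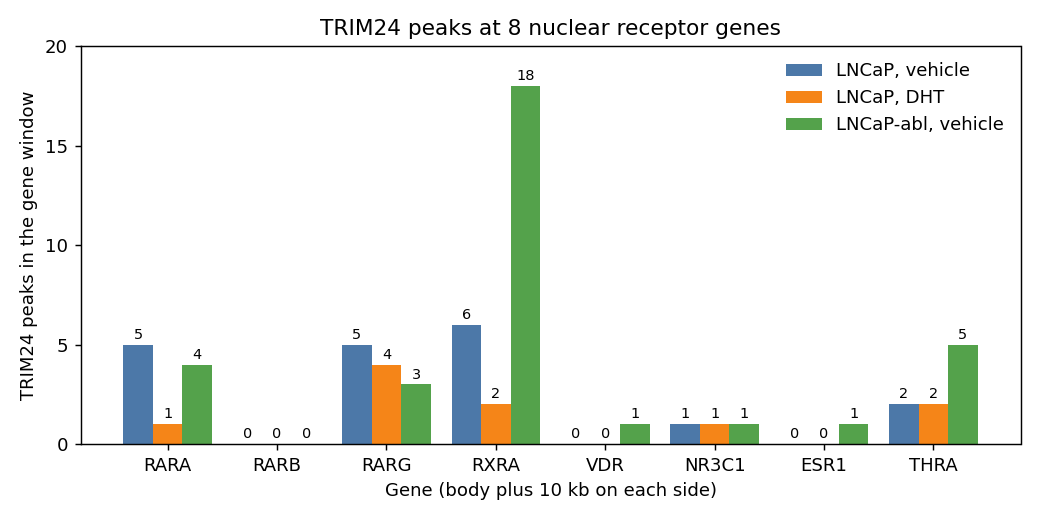
Number of TRIM24 peaks (vertical axis) with their midpoint in the body of each gene or within 10 kb of it (horizontal axis), for the 3 peak lists, 1 library each. RXRA carried 6 peaks with vehicle, 2 with DHT and 18 in LNCaP-abl, and RARB carried 0 in all 3.

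At 4 genes a region with a peak in all 3 lists had its midpoint within 2 kb of the 5′ end of the gene body: RXRA, RARG, THRA and NR3C1. The THRA region lay 0.8 to 1.9 kb into the body and did not reach its end. The 2 kb limit was chosen after the values were seen. How often regions of the whole series lie this near a 5′ end was not computed, so the count has no background. At RARA 2 of the 5 regions lay near internal starts, and at RARB no peak lay at the start of the body used here. The 250 bases upstream of these starts are shown for the genes with a shared peak at the 5′ end and for the internal RARA starts. RARB is shown as the gene with no peak in its window. The sequences come from RefSeq in the build GRCh38.p14, which is not the build of the peaks. Each start was matched by its distance to the far end of the gene, which had to be within 1.5 kb of the body length in hg19, or for RARA by its distance from the gene's own outermost start. No coordinate was carried from one build to the other. Of the 8 genes, 7 had an entry, and VDR had none. Capitals mark the GC box GGGCGG on either strand and, in RARB, the direct repeat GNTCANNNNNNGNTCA on either strand.
RXRA, chr9:134326205-134326454, plus strand: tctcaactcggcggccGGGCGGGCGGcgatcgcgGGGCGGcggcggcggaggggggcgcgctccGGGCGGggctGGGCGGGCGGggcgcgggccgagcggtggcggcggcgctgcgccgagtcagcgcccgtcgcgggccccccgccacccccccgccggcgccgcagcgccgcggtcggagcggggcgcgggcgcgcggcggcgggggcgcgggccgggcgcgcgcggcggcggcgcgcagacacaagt
RARG, chr12:53232210-53232459, minus strand: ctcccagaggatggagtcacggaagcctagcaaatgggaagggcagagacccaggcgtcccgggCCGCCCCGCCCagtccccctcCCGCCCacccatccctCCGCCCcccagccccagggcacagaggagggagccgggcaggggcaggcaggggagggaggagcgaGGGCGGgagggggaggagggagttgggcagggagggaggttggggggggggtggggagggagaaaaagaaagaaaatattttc
THRA, chr17:40062715-40062964, plus strand: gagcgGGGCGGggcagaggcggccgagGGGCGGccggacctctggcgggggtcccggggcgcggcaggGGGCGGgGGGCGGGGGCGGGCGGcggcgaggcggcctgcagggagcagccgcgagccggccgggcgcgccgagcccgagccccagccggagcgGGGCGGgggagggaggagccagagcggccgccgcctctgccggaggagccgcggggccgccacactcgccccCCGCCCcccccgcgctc
NR3C1, chr5:143403687-143403936, minus strand: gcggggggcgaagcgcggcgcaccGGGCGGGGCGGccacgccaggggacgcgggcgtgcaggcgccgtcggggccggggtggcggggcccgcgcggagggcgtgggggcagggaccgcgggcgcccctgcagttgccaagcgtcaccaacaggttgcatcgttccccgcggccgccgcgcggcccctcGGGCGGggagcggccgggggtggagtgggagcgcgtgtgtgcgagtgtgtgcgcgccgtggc
RARA internal start at 9.06 kb, chr17:40317995-40318244, plus strand: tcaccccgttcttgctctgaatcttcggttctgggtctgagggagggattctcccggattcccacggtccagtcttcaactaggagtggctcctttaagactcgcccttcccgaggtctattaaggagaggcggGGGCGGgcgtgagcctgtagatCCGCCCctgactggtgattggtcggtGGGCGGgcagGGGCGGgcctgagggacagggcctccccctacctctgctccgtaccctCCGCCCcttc
RARA internal start at 32.99 kb, chr17:40341916-40342165, plus strand: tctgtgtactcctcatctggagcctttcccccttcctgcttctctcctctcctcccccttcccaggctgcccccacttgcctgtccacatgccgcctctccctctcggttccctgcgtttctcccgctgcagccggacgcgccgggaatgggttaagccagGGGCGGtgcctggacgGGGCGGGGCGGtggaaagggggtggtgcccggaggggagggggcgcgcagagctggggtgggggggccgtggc
RARB, chr3:25428013-25428262, plus strand: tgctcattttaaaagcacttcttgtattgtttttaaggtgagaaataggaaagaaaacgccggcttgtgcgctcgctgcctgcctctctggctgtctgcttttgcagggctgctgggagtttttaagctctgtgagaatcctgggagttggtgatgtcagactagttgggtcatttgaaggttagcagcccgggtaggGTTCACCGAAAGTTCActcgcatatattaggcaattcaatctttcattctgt

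The stretches printed for the 5 genes with peaks in every list all carried GC boxes, the binding sequence of SP1-type factors. The RXRA stretch had 6 boxes and 89.2% G and C, that of THRA 8 boxes and 87.2%, and that of NR3C1 3 boxes and 82.0%. The other 4 NR3C1 starts that match the body length had 1 or 2 boxes and 59.2 to 70.8%. RARG had 5 boxes and 69.6%, and the 2 internal RARA starts had 5 and 3 boxes and 63.6% and 70.4%. The printed RARB stretch had 0 boxes and 46.0%, against a median of 58.0% over the 35116 upstream stretches of the RefSeq table. The outermost RARB start, which lies outside the body used here, had 2 boxes and 76% G and C. The RARB starts 511.48 and 628.99 kb from that one had 0 boxes, with 41.6% and 29.6%. The former also held 1 AGGTCA and 1 AGAACA. ESR1, like RARB without a peak at the 5′ end of its body, has 6 starts in the table, with 0 or 1 box and 36 to 60.8% G and C. None of these matched the body length used here. A GC box stood in 42.6% of all these stretches. The printed RARB stretch instead held the run GTTCACCGAAAGTTCA, from 52 to 37 bases before its start. This run is the textbook retinoic acid response element of the RARB gene, in which the hexamers stand 5 bases apart. A match to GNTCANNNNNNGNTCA occurred in 0.584% of all stretches and in none of the other printed ones. That motif was added after the sequences were seen. The hexamer AGGTCA, present in 12.1% of all stretches, and AGAACA, present in 12.4%, were in none of the 7 printed stretches. All motifs were searched on both strands, and GC boxes that overlap each other were counted separately. The outermost RARA start, which had no peak within 9 kb, held 1 AGGTCA and 1 GC box. A match is a description of these letters and not a measured binding site.

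RARA encodes the retinoic acid receptor alpha, which TRIM24 is known to contact, and its body spans 38.465 to 38.514 Mb of chromosome 17. TRIM24 peaks were spread along RARA, with 5 peaks under vehicle, 1 under DHT and 4 in LNCaP-abl. Consecutive windows of the same 69 kb held at least 1 peak in 14.5%, 11.7% and 25.9% of cases in these lists. The 5′ end itself was bare, and the nearest peak began 9.9 kb away under vehicle, 54.1 kb away under DHT and 9.4 kb away in LNCaP-abl.

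Inside RARA, the LNCaP-abl peak from 38474418 to 38475033 on chromosome 17 had a score of 58.9, at the 70.3rd percentile of its list. The score is the authors' −log10 of a p or q value and ranks peaks within a list only, and a percentile is the share of the peaks of that list at or below the score. An overlapping vehicle peak from 38474942 to 38475141 scored 2.36, at the 0.5th percentile, near the lowest score of that list. The joined region lay 9.4 to 10.1 kb from the 5′ end, and RefSeq has a RARA start 9.06 kb along the gene. The hg19 end is known to 1 kb only, so the distances match to within about that. The next LNCaP-abl peak, from 38497446 to 38498721, scored 30.7 and lay over a vehicle peak from 38498247 to 38498496 with a score of 8.62. It spanned 32.4 to 33.7 kb, and RefSeq has a RARA start at 32.99 kb. The antisense gene RARA-AS1 also overlaps RARA in the RefSeq table, and a peak cannot be assigned to a strand. Neither region had a DHT peak, and the nearest lay 43947 bp from the one and 20367 bp from the other.

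A peak present in all 3 lists stood 5.4 kb past the far end of RARA, from 38518859 to 38520007. It was the best RARA peak of LNCaP-abl, with a score of 107.8 at the 88.2nd percentile. Vehicle had 2 peaks there, the better with a score of 6.20, and DHT had 1 with 5.74. The next coding gene in that direction is GJD3, which encodes a gap junction protein, and which of the 2 genes the peak belongs to was not tested. The remaining RARA peaks were seen once each. LNCaP-abl had one from 38504912 to 38505140 with a score of 9.48, and vehicle had one from 38488200 to 38488575, scoring 6.61, whose nearest LNCaP-abl peak was 8870 bp away.

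RARG encodes the retinoic acid receptor gamma. Its body, at 53.604 to 53.626 Mb of chromosome 12 and read towards lower coordinates, carried 2 regions shared by all 3 lists. The region at the 5′ end, on chromosome 12 from 53625462 to 53626265, had a best vehicle score of 4.71, a best DHT score of 6.002 and a LNCaP-abl score of 86.8. The other, from 53614640 to 53615900, lay 10.1 to 11.4 kb into the gene, with best scores of 7.69 for vehicle, 6.63 for DHT and 153.5 for LNCaP-abl. In both regions the LNCaP lists had 2 narrow peaks where LNCaP-abl had a single wide one. RARG therefore had more peaks under vehicle (5) and DHT (4) than in LNCaP-abl (3), but 3, 2 and 3 regions. Consecutive windows of 42 kb held a peak in 9.55%, 7.60% and 18.3% of cases.

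The other 2 RARG regions were weak. The vehicle peak from 53618408 to 53618607 scored 2.11, at the 0.2nd percentile of its list. A LNCaP-abl peak from 53613823 to 53614100 scored 6.44, with a vehicle peak 539 bp and a DHT peak 823 bp away.

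RARB encodes the retinoic acid receptor beta, whose own transcription retinoic acid induces through the element printed above. Its body spans 25.470 to 25.639 Mb of chromosome 3, and no TRIM24 peak lay in the 189 kb window in any list. Of consecutive windows of that length, 30.3% were occupied under vehicle, 25.6% under DHT and 45.7% in LNCaP-abl, so that an empty window was the more common case. From the 5′ end of the body, the nearest peak was 354.5 kb away under vehicle, 235.8 kb under DHT and 235.5 kb in LNCaP-abl. The peaks nearest to the window lay past the far end at 1 site, where DHT had a peak from 25705771 to 25706037, 66.9 kb away, with a score of 6.33. The LNCaP-abl peak there, from 25705548 to 25706776, was 67.2 kb away and scored 100.9. In the RefSeq table TOP2B, a DNA topoisomerase gene, overlaps that end of RARB.

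The RARB body used here is the shorter form of the gene. RefSeq gives RARB a length of 769 kb against 169 kb here, with its outermost start 598.9 kb before the start printed above. In hg19 a vehicle peak from 24870652 to 24870983 and a LNCaP-abl peak from 24870577 to 24871450 had midpoints 599 kb before the start of the body, with scores of 9.36 and 49.7. DHT had no peak there, and its nearest peak on that side was 933 kb away. These 2 peaks lie outside the counting rule and were looked for after the RefSeq starts had been seen.

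RXRA encodes the retinoid X receptor alpha, the partner shared by RAR, THRA and VDR proteins. The gene body spans 137.218 to 137.332 Mb of chromosome 9. With its flanks the gene had the largest number of regions of the 8, 19 of 36, and held 6 of the 19 vehicle peaks in the windows, 2 of the 10 DHT peaks and 18 of the 33 LNCaP-abl peaks. Consecutive windows of 134 kb held at least 1 peak in 23.9%, 19.9% and 38.7% of cases. The only region of all 3 lists was at the 5′ end, on chromosome 9 from 137217574 to 137219169. The best vehicle score there was 11.1, at the 82.0th percentile, the DHT score 9.39, at the 72.2nd, and the LNCaP-abl score 164.8, at the 95.8th. These were also the highest RXRA scores of each list.

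The body of RXRA held a run of LNCaP-abl peaks, in a stretch marked off after its values were seen. Over the whole LNCaP-abl list, 36.0% of peaks overlapped a vehicle peak and 27.4% a DHT peak. Between 29.6 and 61.1 kb from the 5′ end of RXRA there were 13 regions, of which 12 had a LNCaP-abl peak, 2 a vehicle peak and 1 a DHT peak. The best of them, from 137248695 to 137249458, scored 30.4 in LNCaP-abl and 5.80 under vehicle. Those from 137257514 to 137258585 and from 137269857 to 137270307 scored 19.3 and 18.6 and were in LNCaP-abl alone. The latter ended 52.3 kb into the gene, and RefSeq has a second RXRA start at 52.84 kb. Further along, the region from 137299038 to 137299564 scored 67.3 in LNCaP-abl and 3.67 under vehicle. The DHT peak from 137266785 to 137267190, with a score of 3.91 at the 8.9th percentile, had no overlap in the other lists, and a LNCaP-abl peak lay 195 bp from it. The other 13 RXRA regions scored between 4.86 and 17.8 in LNCaP-abl, and 1 of them also had a vehicle peak. Only 2 of the 18 RXRA peaks were among the 7105 highest-scoring LNCaP-abl peaks, and vehicle kept 4 of 6 in a list of that length. Most RXRA peaks of LNCaP-abl thus ranked in the lower part of a long list.

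**Figure D2:**
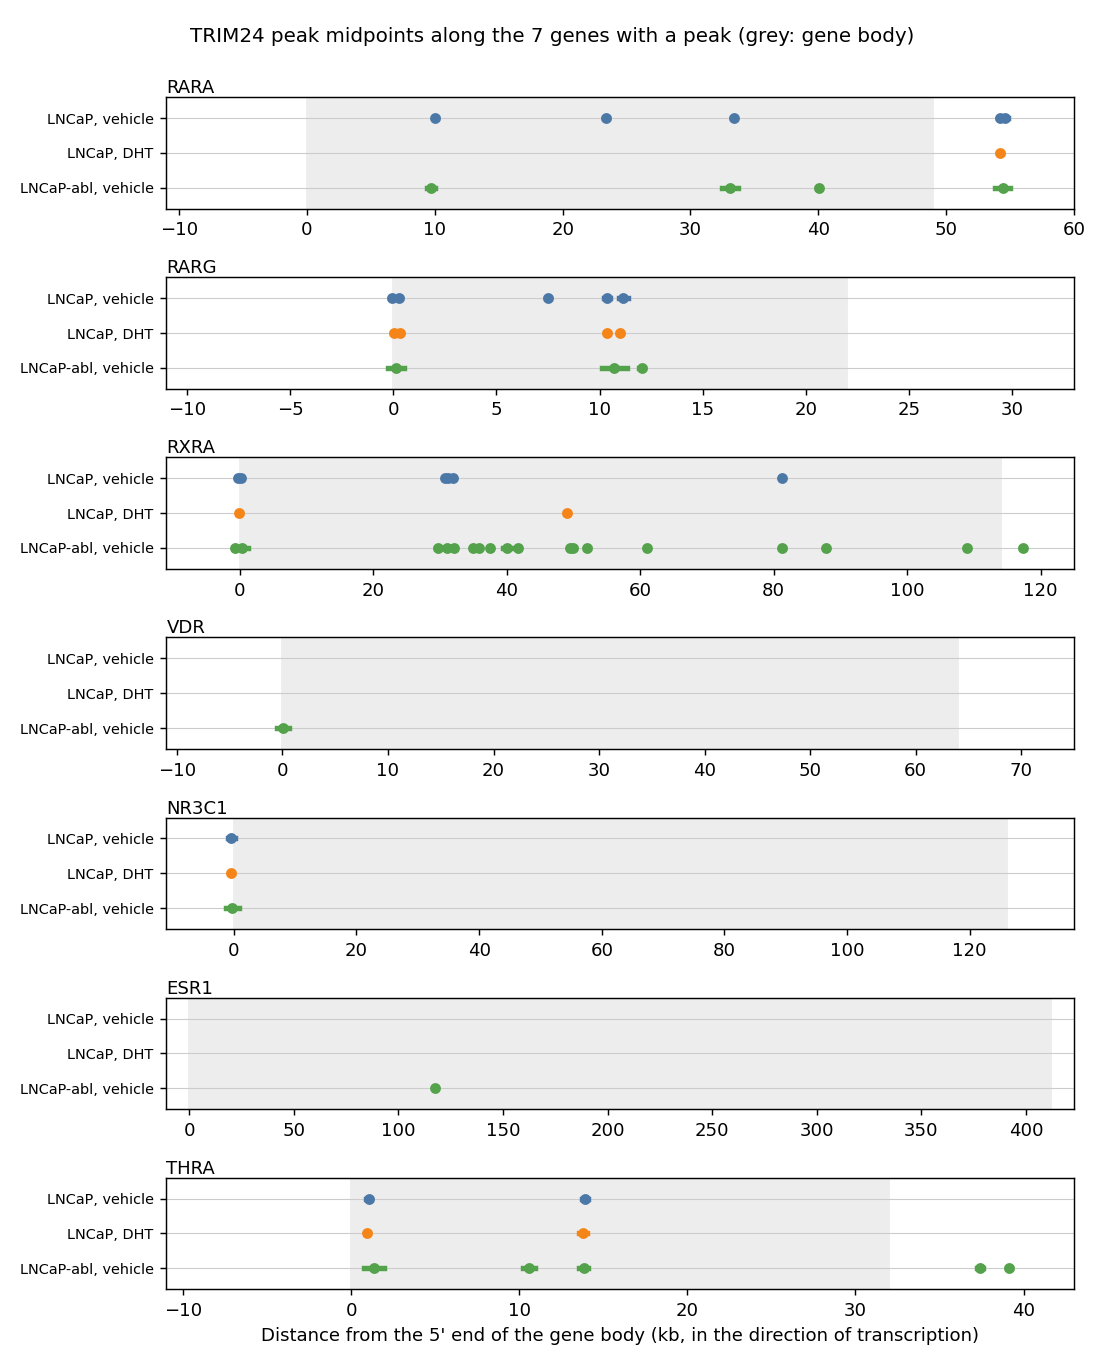
Midpoints of TRIM24 peaks (points) and their widths (bars) along the 7 genes with a peak, as distance in kb from the 5′ end of the gene body in the direction of transcription, with 1 row per peak list and the gene body in grey. Peaks of all 3 lists stand within 2 kb of the 5′ ends of RARG, RXRA, NR3C1 and THRA, and only LNCaP-abl has one at the 5′ end of VDR.

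THRA encodes the thyroid hormone receptor alpha and lies at 38.218 to 38.250 Mb of chromosome 17, on the same chromosome as RARA. It had 2 regions in all 3 lists. The region near the 5′ end, from 38218752 to 38219948, scored 6.02 with vehicle, 6.22 with DHT and 146.7 in LNCaP-abl. The region from 38231561 to 38232111, 13.8 kb into the gene, scored 6.78, 6.91 and 13.9. In the 2 LNCaP lists the inner region therefore outranked the one near the start, while in LNCaP-abl the latter stood at the 94.3rd percentile and the inner one at the 35.9th. LNCaP-abl alone had a peak from 38228237 to 38228923, with a score of 36.4. It also had peaks from 38255214 to 38255578 and from 38257016 to 38257263, with scores of 28.3 and 5.73, which lay 5.4 and 7.1 kb past the far end. In the RefSeq table that end is overlapped by NR1D1, which encodes the haem-binding receptor REV-ERB-alpha. The extent of NR1D1 was not set against the peaks, so whether these 2 peaks lie in or next to NR1D1 was not determined. Consecutive windows of 52 kb held a peak in 11.5% of cases under vehicle, 9.20% under DHT and 21.5% in LNCaP-abl.

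VDR encodes the vitamin D receptor, and its gene, at 48.235 to 48.299 Mb of chromosome 12, is read towards lower coordinates. LNCaP-abl had 1 peak in the window, on chromosome 12 from 48298411 to 48299530, which spanned the 5′ end of the body. Its score of 41.4 stood at the 61.3rd percentile of the list, the highest among the regions held by LNCaP-abl alone. The nearest DHT peak lay 84417 bp away and the nearest vehicle peak 84460 bp. Windows of 84 kb held a LNCaP-abl peak in 29.5% of cases, a vehicle peak in 16.9% and a DHT peak in 13.9%. Just outside the limit, a site 21.3 to 21.5 kb past the far end of VDR had a peak in every list, with a vehicle score of 7.91, a DHT score of 9.49 and a LNCaP-abl score of 139.1. The next coding gene on that side is HDAC7, a histone deacetylase gene.

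NR3C1 encodes the glucocorticoid receptor. Its body, at 142.657 to 142.783 Mb of chromosome 5, is read towards lower coordinates. Each list had exactly 1 peak in the window, at the 5′ end, with the midpoint 0.22 to 0.41 kb before the body. That end is known to 1 kb only, and counted in the body alone NR3C1 had 0 peaks in every list. The LNCaP-abl peak from 142782172 to 142784264 scored 194.8, the highest score in any of the windows and at the 97.3rd percentile. The vehicle peak from 142782876 to 142783924 scored 12.6, at the 85.8th percentile, and was the highest of that list in the windows. The DHT peak from 142783120 to 142783709 scored 5.50, at the 30.4th percentile. With 2.09 kb the LNCaP-abl peak was as wide as the cluster of NR3C1 starts, since 5 of the 7 RefSeq starts of the gene lie within 2.07 kb and match the body length used here. The start printed above is the one of them that matched best. No further peak of any list lay within 295 kb of the body.

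ESR1 encodes the oestrogen receptor alpha. Its body spans 152.012 to 152.424 Mb of chromosome 6. The window of 432 kb was the longest of the 8 and held a single weak LNCaP-abl peak, from 152129511 to 152129724, 117.6 kb into the gene. Its score of 5.66 stood at the 8.9th percentile, and the peak was not among the better-scoring 50% of the list. Consecutive windows of this length held a LNCaP-abl peak in 62.8% of cases, a vehicle peak in 47.8% and a DHT peak in 42.5%, so ESR1 fell in the more common case in every list. From the 5′ end of the body, the nearest vehicle peak was 299 kb away and the nearest DHT peak 239 kb. RefSeq has ESR1 starts 33.85, 149.03, 150.52, 151.01 and 152.44 kb from the outermost one. If the start at 33.85 kb is the 5′ end of the body used here, those from 149.03 to 152.44 kb lie around the LNCaP-abl peak. That match was not checked in hg19, so the peak cannot be called distant from every ESR1 start.

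The 7 regions found in all 3 lists belonged to RARA, RARG, RXRA, NR3C1 and THRA. They made up 19.4% of the 36 regions (exact binomial 95% interval 8.19 to 36.0), against 19.6% of all regions of the series. Regions of LNCaP-abl alone numbered 21, or 58.3% (40.8 to 74.5), against 53.6% of all regions. Both shares were close to those of the series. Intervals cover counting error only and treat neighbouring peaks as independent, which they are not. A further 5 regions were in LNCaP-abl and vehicle, 2 in vehicle alone, 1 in DHT alone, and 0 in the 2 remaining classes. Shared regions had the high LNCaP-abl scores, with a median of 147 and a range of 13.9 to 195. Those of LNCaP-abl alone had a median of 9.48 and a range of 4.86 to 41.4. The exception among the shared regions was the inner THRA site. These score medians were not computed over all regions of the series, so whether the contrast is particular to these genes was not tested.

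**Figure D3:**
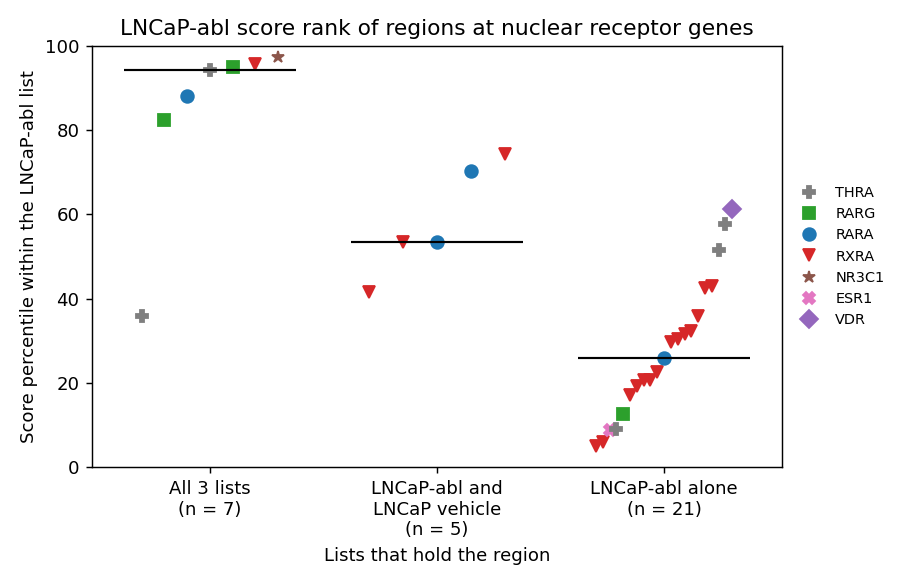
Score percentile within the LNCaP-abl list (vertical axis) of the 33 regions with a LNCaP-abl peak, grouped by the lists that hold them (horizontal axis), with 1 symbol per region and the median as a line. Of the 7 shared regions 6 stand at or above the 82.4th percentile, while the highest region of LNCaP-abl alone, at VDR, stands at the 61.3rd.

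Except at the inner THRA site, the shared regions stood at lower percentiles in the LNCaP lists than in LNCaP-abl. Over all 7 shared regions the best peaks ran from the 21.6th to the 85.8th percentile under vehicle and from the 30.4th to the 72.2nd under DHT. The percentiles belong to lists of unlike length, 9744 for vehicle, 7105 for DHT and 20621 for LNCaP-abl, and are not on 1 scale. At 4 of the 7 regions vehicle also had 2 peaks where LNCaP-abl had 1. Over all peaks in the windows, the median percentile was 44.1 under vehicle, 39.4 under DHT and 35.9 in LNCaP-abl.

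**Figure D4:**
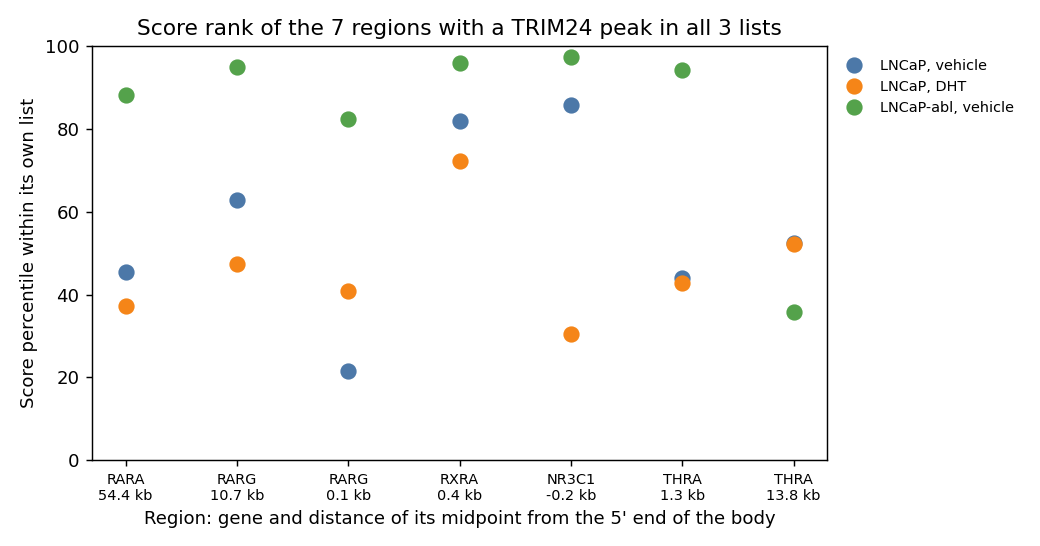
Score percentile of the best peak within its own list (vertical axis) for the 7 regions with a peak in all 3 lists (horizontal axis, gene and distance from the 5′ end in kb), 1 library per list. LNCaP-abl stands highest at every region except the THRA region at 13.8 kb, where it is at the 35.9th percentile. The lists differ in length, so the percentiles are not on 1 scale.

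Setting DHT against vehicle asks how TRIM24 sites in LNCaP go with short androgen exposure. RARA had 5 vehicle peaks and 1 DHT peak, RXRA 6 and 2, RARG 5 and 4, and NR3C1 and THRA had equal numbers. Of the 10 DHT peaks in the windows, 9 (90.0%, 55.5 to 99.7) overlapped a vehicle peak, against 66.7% over the whole DHT list. Of the 19 vehicle peaks, 10 (52.6%, 28.9 to 75.6) overlapped a DHT peak, against 48.6%. The interval of each share holds its background. Of the 9 vehicle peaks without a DHT partner, 4 were at RARA, 4 at RXRA and 1 at RARG. Counted as regions, RARA had 4 with vehicle and 1 with DHT, RXRA 4 and 2, and RARG 3 and 2. With the vehicle list shortened to the length of the DHT list, vehicle had 12 peaks in the windows and DHT 10. RARA then had 3 vehicle peaks and 1 DHT peak and RXRA 4 and 2, while RARG had 2 and 4, the reverse order.

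Setting LNCaP-abl against its parent line compares castration-resistant with androgen-dependent cells. As over the whole lists, of which that of LNCaP-abl is the longest, LNCaP-abl peaks overlapped nearly all LNCaP peaks at these genes. Of the vehicle peaks, 17 of 19 (89.5%, 66.9 to 98.7) overlapped a LNCaP-abl peak, against 88.4% over the list, and of the DHT peaks 9 of 10 (90.0%, 55.5 to 99.7), against 88.8%. In the other direction, a vehicle peak overlapped 12 of the 33 peaks of LNCaP-abl (36.4%, 20.4 to 54.9), against 36.0%, and a DHT peak overlapped 7 (21.2%, 8.98 to 38.9), against 27.4%. All 4 shares were near those of the whole lists. In lists of 7105 peaks each, LNCaP-abl had 8 peaks in the windows, fewer than vehicle with 12 and DHT with 10, so the order turned over. LNCaP-abl then had peaks at the same number of genes as the LNCaP lists, 5, and the VDR and ESR1 peaks were gone. Of the vehicle peaks in these windows 58.3% then overlapped a LNCaP-abl peak, and of the DHT peaks 80.0%. Just outside the 10 kb limit RARG had sites that LNCaP-abl held alone at 12.4 kb with a score of 46.4 and at 19.9 kb with 93.1. The member farthest outside a gene body was the THRA peak at 7.1 kb with 5.73.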

How the data were processed

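Deposited were 3 TRIM24 peak lists, 1 per condition, with hg19 coordinates. Per the submitters' processing notes, FastQC 0.10.0, Bowtie 0.12.7 and MACS2 2.0 were used. How the 3 inputs (not analysed here) entered the calling was not given in the sources used here, nor was a cutoff. The authors' score is a −log10 value, of p or of q without saying which, and it grows with depth, which is unknown. Its lowest value was 2.02.

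Groups came from the labels. Gene bodies are those of the rule, to 1 kb. Overlap meant at least 1 bp, computed with Python 3.11.15 (numpy 2.4.6, scipy 1.17.1) and checked against bedtools 2.31.1, and tested on simulated data. Percentiles are the share of a list's peaks at or below a score. Shares carry exact Clopper-Pearson 95% intervals. Figures used matplotlib 3.10.9. Strand, upstream sequence and neighbour names came from RefSeq tables of GRCh38.p14; for VDR the strand is general knowledge. The members and lists were chosen with earlier results of these data known. For a gene with 8 or fewer regions all are named; for RXRA, the 5 with the highest score and any that LNCaP-abl lacks. The 2 kb limit at 5′ ends, the RXRA stretch from 29.6 to 61.1 kb and the named peaks outside the windows were chosen after their values were seen. Alternatives were a body without or with 25 kb of flank, any base inside the window, fewer peaks, and stricter or looser overlap. Other nuclear receptor genes, and protein sequences, had been planned and were not analysed here.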

Additional observations from a re-analysis of the deposited data

How the results depend on the processing

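No paired analysis was possible because there was a single library per condition, which also leaves no replicate to omit. The 19 summary values were peak and gene totals per list, region classes and shares. All stayed within 1.5 times with 25 kb of flank and 18 with the gene body alone, where DHT had peaks at 3 genes. Counts of single genes moved more. With 25 kb, VDR went from 0 to 1 under vehicle and under DHT. In LNCaP-abl, VDR went from 1 to 2 and RARG from 3 to 5. With the body alone, RARA fell from 5 to 3 under vehicle and from 1 to 0 under DHT. NR3C1 fell from 1 to 0 in every list, RXRA from 2 to 1 under DHT and THRA from 5 to 3 in LNCaP-abl. Counting any base inside a window changed none of the 6 counts it applied to.

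The better-scoring 50% of each list left 8 vehicle, 2 DHT and 13 LNCaP-abl peaks, with DHT at 2 genes. Regions then numbered 1 in all 3 lists, 1 in both LNCaP lists, 3 in vehicle and LNCaP-abl, 1 in vehicle alone, 0 in DHT alone and 9 in LNCaP-abl alone. Of the DHT peaks 100% overlapped vehicle and 50% LNCaP-abl, and 7.69% of LNCaP-abl peaks overlapped DHT. Lists of equal length left 12 vehicle and 8 LNCaP-abl peaks, and regions of 1 for both LNCaP lists, 0 for vehicle with LNCaP-abl, 1 for DHT with LNCaP-abl, 4 for vehicle alone and 2 for LNCaP-abl alone. Shares were then 58.3% for vehicle in LNCaP-abl, 62.5% for LNCaP-abl in vehicle and 75.0% in DHT.

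A reciprocal overlap of 50% gave 2 regions in all 3 lists, 4 in both LNCaP lists, 1 in vehicle and LNCaP-abl, 12 in vehicle alone and 4 in DHT alone. Vehicle and DHT peaks then overlapped LNCaP-abl in 15.8% and 10.0% of cases, and LNCaP-abl overlapped vehicle in 9.09% and DHT in 3.03%. By construction this rule drops narrow peaks nested in wide ones. With peaks less than 1 kb apart taken as shared, 1 region was in DHT and LNCaP-abl, 0 in DHT alone, and 100% of DHT peaks were shared with LNCaP-abl. For the other settings, which keep fewer peaks or another window, the cause was not tested.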

Other observations

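Around THRA, sites beyond the 10 kb limit were shared as well. A site 28.1 to 28.6 kb past the far end had 2 vehicle peaks, with scores of 4.71 and 7.29, and a LNCaP-abl peak from 38277614 to 38279605 with a score of 86.3, and DHT had no peak there. A site 46.7 to 46.8 kb past that end had a peak in every list, with scores of 10.3 under vehicle, 10.7 under DHT and 97.6 in LNCaP-abl. MSL1, which encodes a subunit of a histone acetyltransferase complex, is the next coding gene in that direction.

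On the far side of RARG, 29.4 kb past its end, every list had a peak, with scores of 14.4 under vehicle, 10.9 under DHT and 234.9 in LNCaP-abl. These were higher than at any RARG site inside the window in the same list. ITGB7, an integrin gene, is the coding gene next to RARG on that side, and which gene the peak lies in was not determined here.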
